A study of Mus musculus with 24 samples.

Results

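The SMAD feedback and ID target genes are 10 genes of TGF-β and bone morphogenetic protein (BMP) signaling: the signal-carrying Smad2, Smad3 and Smad4, the inhibitory Smad6 and Smad7, the regulators Smurf2 and Skil, and the target genes Id1, Id2 and Id3. They were picked by name, with earlier results of these data known. All 10 were among the 55291 gene names counted in every library, and all 10 were among the 16258 genes that passed the filter on low counts. The libraries were made from lung fibroblasts of C57BL/6 mice aged 4 to 8 weeks, either wild type (WT) or labelled TLR4-/-, the genotype without Toll-like receptor 4. Each set of cells was grown from 3 to 4 pooled lungs, used at passages 3 to 6 and kept overnight in reduced-serum Opti-MEM. Cells of each genotype then received PBS, 1 μg/ml rmCIRP (recombinant mouse cold-inducible RNA-binding protein, which outside cells is a ligand of TLR4), 2 ng/ml rmTGF-β1 or both agents. Total RNA was sequenced from lysates taken at 24 h, with 3 libraries for each of the 8 conditions (n = 3), and the comparisons ask what each agent did to these genes, alone and on top of the other, in each genotype.

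Receptors of the TGF-β family phosphorylate receptor-regulated SMADs, which bind the common partner SMAD4 and enter the nucleus. SMAD2 and SMAD3 carry the TGF-β and activin signal, while SMAD1, SMAD5 and SMAD9 carry that of the BMPs, for which Id1, Id2 and Id3 are classical target genes. The pathway is held in check by feedback: SMAD6 mainly restrains BMP signaling, SMAD7 restrains both branches, SMURF2 is a ubiquitin ligase that marks receptors and SMADs for degradation, and SKIL (SnoN) represses SMAD-driven transcription. ID proteins lack a DNA-binding region and hold basic helix-loop-helix factors in inactive pairs, and in fibroblasts the balance of these branches is known to bear on matrix production and on the myofibroblast state.

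Each library held 29853346 to 39664606 reads assigned to genes, and each of the 10 genes had at least 522 normalized counts (reads divided by a size factor of the library) in every library. The labels do not say whether libraries of a condition came from separate cultures, so the p-values below measure the spread between these libraries, which may be technical, and genotype and lung pool cannot be told apart. Tlr4 itself was not lower in the libraries labelled TLR4-/-: it had 702 to 941 normalized counts there and 629.7 to 802 in WT libraries. Within each treatment it was higher in every library labelled TLR4-/- than in any WT library, with 891 to 927 against 718 to 802 under PBS. The label is kept as given, and counts over the whole gene do not tell its exons apart. Of 12 fibroblast markers none was at 0 in any condition, and their summed normalized counts ranged from 464860 to 652350, while those of 16 macrophage markers ranged from 81495 to 102150 in WT libraries and from 345350 to 446320 in those labelled TLR4-/-. Epithelial markers summed to 49.9 to 143 normalized counts in WT libraries and 297 to 382 in those labelled TLR4-/-. Lymphocyte markers summed to 12.8 to 64.9 and endothelial markers to 814 to 1723. The epithelial gene Nkx2-1 was at 0 in every WT library but throughout no condition labelled TLR4-/-, while the T cell gene Cd3e was at 0 throughout several conditions. In such bulk libraries, fewer cells of a type and less RNA per cell cannot be told apart. Replicate 3 with both agents and replicate 3 with rmTGF-β1 alone, both labelled TLR4-/-, stood apart from their replicates: chi-square per degree of freedom was 21 and 30.5 against the other 2 libraries for the one with both agents, and 10.7 and 8.24 for the one with rmTGF-β1 alone, against at most 5.04 in the remaining pairs of replicates. Results of comparisons that include these 2 libraries and rest on them are given with and without them. The spread of each gene was estimated from all 24 libraries, so these 2 also enter the p-values of the other comparisons, including those within WT. For those, the fit with only the libraries compared is the one that leaves them out.

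RefSeq promoter sequences (GRCm38.p6) were at hand for 5 of the 10 genes, Smad3, Smad6, Smurf2, Id2 and Id3, and are shown because SMAD proteins reach their targets through short boxes in such DNA. Each runs 5′ to 3′ along the gene from 250 bases before the annotated start to 10 bases after it, for Smad3 at chr9:63757985-63758244, for Smad6 at chr9:64022050-64022309, for Smurf2 at chr11:106920706-106920965 and for Id2 at chr12:25096083-25096342, all on the minus strand, and for Id3 at chr4:136143572-136143831 on the plus strand. Capitals mark the palindromic SMAD box GTCTAGAC, the 5-base SMAD box CAGAC on either strand and the GC box GGCGCC that SMAD1 and SMAD5 can bind.

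Smad6: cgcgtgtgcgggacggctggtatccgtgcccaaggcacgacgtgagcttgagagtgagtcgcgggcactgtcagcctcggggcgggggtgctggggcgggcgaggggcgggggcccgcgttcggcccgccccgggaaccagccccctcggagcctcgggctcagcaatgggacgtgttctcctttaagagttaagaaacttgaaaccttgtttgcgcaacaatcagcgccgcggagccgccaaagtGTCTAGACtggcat
Id2: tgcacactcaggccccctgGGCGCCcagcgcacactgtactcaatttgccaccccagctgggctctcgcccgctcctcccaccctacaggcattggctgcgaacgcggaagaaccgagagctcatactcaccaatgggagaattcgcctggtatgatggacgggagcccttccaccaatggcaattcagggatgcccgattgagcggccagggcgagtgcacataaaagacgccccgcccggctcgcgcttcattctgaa
Id3: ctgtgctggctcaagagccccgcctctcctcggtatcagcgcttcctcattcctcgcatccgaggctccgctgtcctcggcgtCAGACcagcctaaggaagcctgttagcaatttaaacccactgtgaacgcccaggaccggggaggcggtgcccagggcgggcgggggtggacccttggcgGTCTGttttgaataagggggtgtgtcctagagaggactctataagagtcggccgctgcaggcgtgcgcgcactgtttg
Smurf2: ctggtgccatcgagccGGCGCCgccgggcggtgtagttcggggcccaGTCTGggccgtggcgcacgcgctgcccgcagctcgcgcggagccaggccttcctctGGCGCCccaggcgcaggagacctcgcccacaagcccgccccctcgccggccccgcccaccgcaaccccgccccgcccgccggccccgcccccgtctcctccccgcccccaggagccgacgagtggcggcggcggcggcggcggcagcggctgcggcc
Smad3: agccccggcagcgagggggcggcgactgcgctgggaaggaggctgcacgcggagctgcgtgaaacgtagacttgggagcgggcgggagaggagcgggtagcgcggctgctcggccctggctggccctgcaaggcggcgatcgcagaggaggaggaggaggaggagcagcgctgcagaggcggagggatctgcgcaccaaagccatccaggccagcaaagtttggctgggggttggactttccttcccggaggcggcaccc

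Smad6 held the palindromic box across its start, from base -4 to base 4, a motif found in 0.213% of all 32851 promoters in the table when 300 bases of each were searched on both strands. The 5-base box was found at bases -167 to -163 and -68 to -64 of Id3 and at bases -203 to -199 and 28 to 32 of Smurf2, the last beyond the bases printed, against a share of 49.6% of all promoters. The GC box lay at bases -231 to -226 of Id2 and at bases -234 to -229 and -147 to -142 of Smurf2, against 11.9% of all promoters. The Smad3 window held none of the 3 motifs, and none of the 5 windows held the AP-1 site TGACTCA (5.2% of all promoters) or the κB consensus (4.51%). A match is a description of letters and no match speaks only of this window.

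Per kilobase of exon, the ID genes stood highest in WT cells with PBS, in the order Id3 (6728 normalized counts per kilobase), Id1 (2651) and Id2 (1717). Smad7 followed at 1172 per kilobase, then Smad4 (805) and Smurf2 (791), whose libraries overlapped, then Smad3 (679), Smad6 (553), Skil (497) and Smad2 (193). Every other pair of neighbours in that order was apart in all 3 libraries. Across the 8 conditions, Smad3 and Smad6 varied most, with highest condition means 2.28 and 2.14 times the lowest, and Smad4 (1.16 times) and Smad2 (1.2 times) least. The remaining genes lay between, with 1.24 times for Smurf2, 1.38 for Id2, 1.42 for Skil, 1.51 for Smad7, 1.56 for Id1 and 1.6 for Id3. Replicates of most conditions were close, with a median coefficient of variation from 1.94% for Smad4 to 8.98% for Smad3, but it reached 35.0% for Smad6 and 25.8% for Id3 in the libraries labelled TLR4-/- with both agents.

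**Figure D1:**
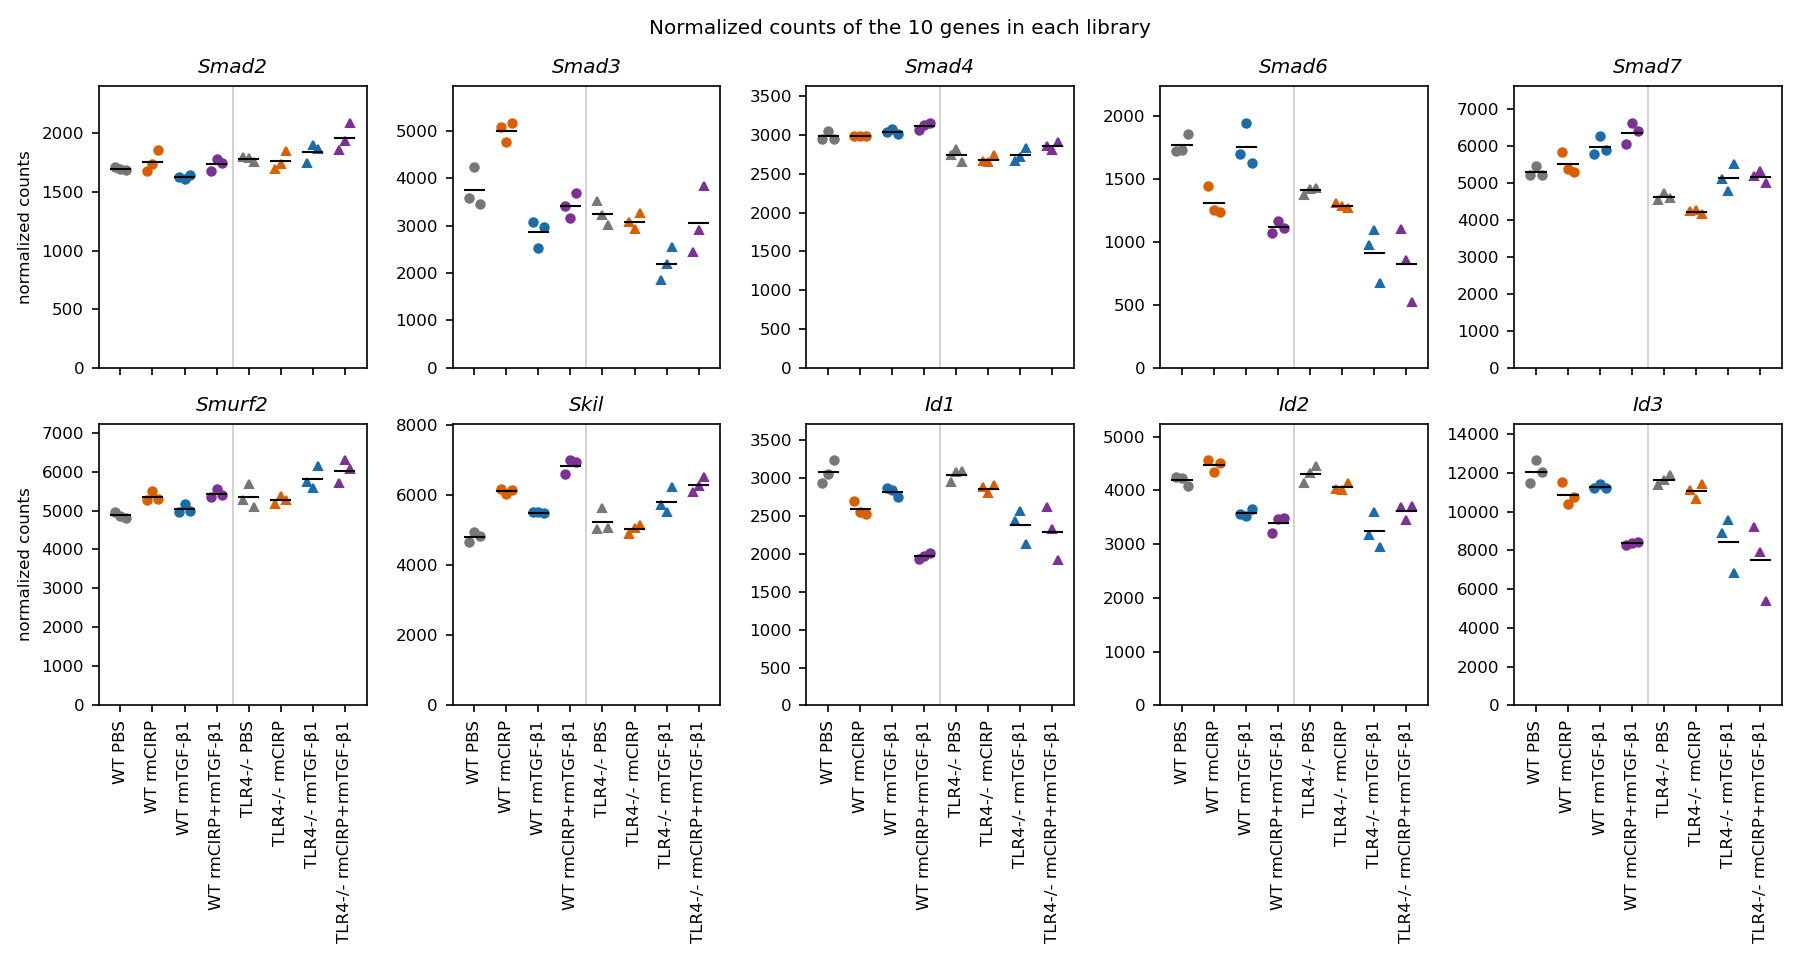
Normalized counts (vertical axes, each from 0) of the 10 genes in every library of the 8 conditions (horizontal axis). Circles are WT and triangles are libraries labelled TLR4-/-, colours mark the treatment and black bars the mean of 3 libraries. Skil in WT cells climbed from a mean of 4818 with PBS to 6838 with both agents, and Smad6 and Id3 spread widely in the 2 right-hand conditions.

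With rmTGF-β1 alone, WT cultures had more mRNA of the feedback genes Smad7 and Skil and less of Smad3 and Id2 than with PBS. These 4 of the 10 genes passed the threshold (adjusted p under 0.1, edgeR's quasi-likelihood test and Benjamini-Hochberg adjustment across every gene tested), 2 in each direction, where 12.4% of all 16258 genes tested did, 5.77% upward and 6.65% downward. The median log2 fold change was -0.04 over the 10 genes and -0.02 over all genes. By mean normalized count, the 10 genes stood above 69.1% (Smad6) to 96.9% (Id3) of all genes tested. Small changes pass more readily at high counts, so here and below the share over all genes is not that of genes at a like level.

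Among the receptor-regulated SMADs, Smad3 had 3589, 4238 and 3462 normalized counts with PBS and 3077, 2539.7 and 2978 with rmTGF-β1, without overlap, and the log2 fold change was -0.40 (adjusted p = 0.0482, SE 0.12). This call rested on single libraries: Smad3 gave -0.29 (adjusted p = 0.234) without WT PBS library 2 and -0.32 (adjusted p = 0.224) without WT rmTGF-β1 library 2. Its paralog Smad2 lay between 1686 to 1709 with PBS and 1613 to 1646 with rmTGF-β1 and did not pass (-0.06, adjusted p = 0.452), nor did the shared partner Smad4, at 2987 ± 61 (mean ± SD) and 3043 ± 29.1. Of the inhibitory SMADs, Smad7 counted 5214, 5458 and 5219.7 with PBS and 5777, 6281 and 5899 with rmTGF-β1, again without overlap, a log2 fold change of 0.17 (adjusted p = 0.026, SE 0.05). It missed the threshold without WT PBS library 3, at 0.16 (adjusted p = 0.104), and without WT rmTGF-β1 library 2, at 0.13 (adjusted p = 0.17). Smad6 did not pass, with 1725, 1732 and 1857 against 1695, 1946 and 1628 and overlapping libraries, and the 95% confidence interval of its log2 fold change ran from -0.34 to 0.30.

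The transcriptional repressor gene Skil was the most tightly measured of these changes: it had 4669.7, 4946 and 4838 normalized counts with PBS and 5517, 5514 and 5478 with rmTGF-β1, and rose by a log2 fold change of 0.19 (adjusted p = 0.00909, SE 0.04). Smurf2, whose product targets SMADs and receptors, did not pass, with a log2 fold change of 0.04 (adjusted p = 0.607) and libraries that were just apart (4814 to 4954 and 4968 to 5159.5). Among the ID genes only Id2 passed, with 4245, 4233 and 4081 normalized counts with PBS and 3561, 3526 and 3655 with rmTGF-β1, and it fell by a log2 fold change of -0.23 (adjusted p = 0.0066, SE 0.05). Id1 and Id3 were also lower in each library with rmTGF-β1, at 2872, 2844 and 2743 against 2939, 3056 and 3231 for Id1 and 11221, 11396 and 11209 against 11457, 12635 and 12056 for Id3. Their log2 fold changes of -0.13 (adjusted p = 0.321) and -0.10 (adjusted p = 0.698) did not pass in edgeR's test. Id1 did pass with only the libraries compared, at -0.11 (adjusted p = 0.0721). Libraries of the 2 conditions did not overlap for 8 of the 10 genes, and for 29.7% of all genes tested.

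In cells labelled TLR4-/-, rmTGF-β1 was accompanied by lower mRNA of all 3 ID genes, of Smad3 and of Smad6, and by higher mRNA of Smad7, Smurf2 and Skil. These 8 of 10 genes passed in edgeR's quasi-likelihood test and Benjamini-Hochberg adjustment, 3 upward and 5 downward, against 23.9% of all genes (12.1% upward and 11.7% downward), and the median log2 fold change of the 10 was -0.17 beside 0.00 over all genes. Smad3 counted 3525, 3225 and 3008 with PBS and 1861, 2191 and 2551 with rmTGF-β1, a log2 fold change of -0.56 (adjusted p = 0.00329, SE 0.13), while Smad2 and Smad4 did not pass. Smad6 counted 1373, 1422 and 1428 and 978, 1090.4 and 669, a log2 fold change of -0.62 (adjusted p = 0.0101, SE 0.16). All 3 treated libraries lay below all 3 PBS libraries for both genes, and the third treated library was the lowest for Smad6 and the highest for Smad3. Without the 2 libraries that stood apart, Smad3 gave -0.68 (adjusted p = 1.95e-05) and Smad6 -0.44 (adjusted p = 0.000541).

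The rises among the feedback genes were small in these cells and leaned on single libraries. Smad7 went from 4532, 4741 and 4596 to 5121, 4793 and 5511 normalized counts (log2 fold change 0.16, adjusted p = 0.0228, SE 0.05), Skil from 5031, 5626 and 5061 to 5705, 5523 and 6221 (0.16, adjusted p = 0.0156, SE 0.04) and Smurf2 from 5267, 5672 and 5095 to 5737, 5589 and 6136 (0.13, adjusted p = 0.033, SE 0.04). The PBS and rmTGF-β1 libraries overlapped for Skil and Smurf2 and were apart for Smad7. Without the third rmTGF-β1 library none of the 3 passed in edgeR's test: Smad7 gave 0.11 (adjusted p = 0.171), Skil 0.11 (adjusted p = 0.132) and Smurf2 0.09 (adjusted p = 0.206). Without the 2 libraries that stood apart, Skil passed at 0.11 (adjusted p = 0.0788), and Smad7 at 0.11 (adjusted p = 0.115) and Smurf2 at 0.09 (adjusted p = 0.155) did not. Smurf2 also missed the threshold without the first PBS library, at 0.12 (adjusted p = 0.106), or the third, at 0.10 (adjusted p = 0.177).

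The ID genes moved together here and lay below every PBS library in every library with rmTGF-β1. Id1 counted 2940.0, 3080.5 and 3097 with PBS and 2438, 2568 and 2125 with rmTGF-β1, Id2 4134, 4328 and 4451 and 3176, 3597 and 2939, and Id3 11359, 11640.0 and 11889 and 8910.0, 9585 and 6817. The third rmTGF-β1 library was the lowest for each of them. The log2 fold changes in edgeR's test were -0.35 (adjusted p = 0.00194, SE 0.07) for Id1, -0.41 (adjusted p = 8.57e-06, SE 0.05) for Id2 and -0.46 (adjusted p = 0.0107, SE 0.12) for Id3. Without the 2 libraries that stood apart they were -0.27 (adjusted p = 0.000172), -0.34 (adjusted p = 1.18e-05) and -0.32 (adjusted p = 8.79e-05), so that each stayed past the threshold.

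Although more of the genes passed in cells labelled TLR4-/-, the rmTGF-β1 response itself was not called different between genotypes for any of the 10 in edgeR's test, where 0.0861% of all genes were called. At an unadjusted p under 0.05, there were 4 of the 10, Smad6, Id1, Id2 and Id3, and 1686 of all 16258 genes. The difference (TLR4-/- minus WT) was largest for Smad6, at -0.61 (adjusted p = 0.327, SE 0.23), with a 95% confidence interval from -1.07 to -0.14, then Id3 at -0.36 (adjusted p = 0.473), Id1 at -0.22 (adjusted p = 0.472), Id2 at -0.18 (adjusted p = 0.392) and Smad3 at -0.16 (adjusted p = 0.818). Without the 2 libraries that stood apart the Smad6 difference was smaller but passed, at -0.42 (adjusted p = 0.0851), while Id3 was -0.22 (adjusted p = 0.157), Id1 -0.14 (adjusted p = 0.345), Id2 -0.11 (adjusted p = 0.513) and Smad3 -0.28 (adjusted p = 0.374). With no filter on low counts Smad6, Id1 and Id3 passed, at -0.64 (adjusted p = 7.48e-12), -0.26 (adjusted p = 0.032) and -0.40 (adjusted p = 8.2e-07). These genes had all passed that filter in the main fit, and none of them was called with only the libraries compared. Without the second rmTGF-β1 library labelled TLR4-/-, Id2 did, at -0.25 (adjusted p = 0.0675).

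**Figure D2:**
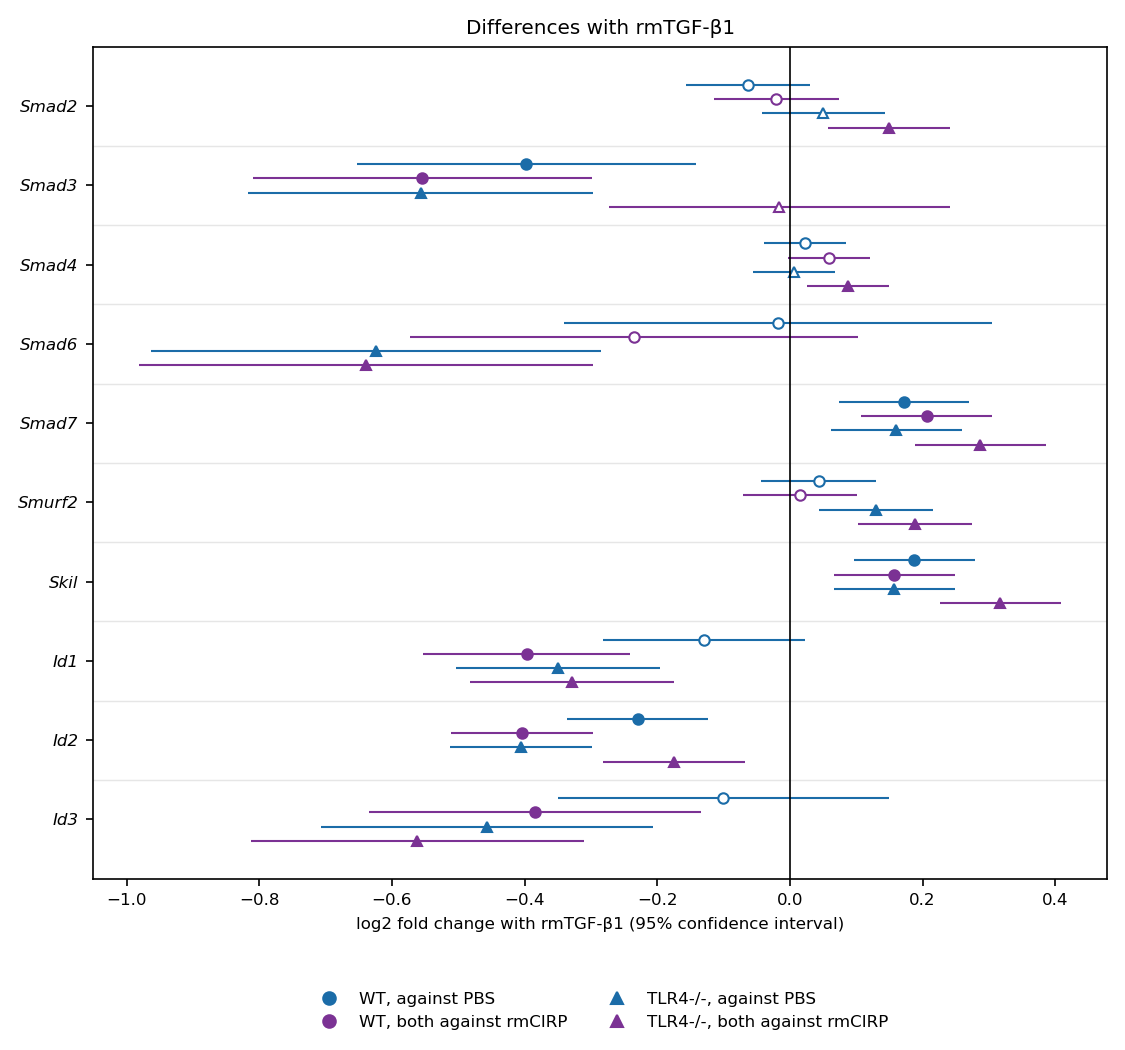
Log2 fold change with rmTGF-β1 (horizontal axis, bars are 95% confidence intervals) for each gene (vertical axis), against PBS in blue and on top of rmCIRP in purple, in WT cells (circles) and cells labelled TLR4-/- (triangles); filled symbols passed an adjusted p under 0.1 and open ones did not. Smad7 and Skil lie to the right of 0 in all 4 comparisons, from 0.16 to 0.32, and Id2 to the left in all 4, from -0.41 to -0.17, while Smad3 is at -0.02 in cells labelled TLR4-/- that also had rmCIRP.

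With rmCIRP alone, WT cultures had more Smad3, Skil and Smurf2 mRNA and less Smad6 and Id1 mRNA than with PBS. Thus 5 of the 10 genes passed in edgeR's quasi-likelihood test and Benjamini-Hochberg adjustment, which is near the background of 43.9% of all genes, and the median log2 fold change was 0.05 over the 10 and -0.02 over all genes. Smad3, which fell with rmTGF-β1, rose with rmCIRP: its 3589, 4238 and 3462 normalized counts with PBS compared with 5088, 4767 and 5176, a log2 fold change of 0.41 (adjusted p = 0.0111, SE 0.12). Both comparisons use the same PBS libraries. Smad2 and Smad4 did not pass, and Smad4 was the same to within the spread of its libraries (2987 ± 61 with PBS and 2989 ± 4.67 with rmCIRP). Smad6 had 1445, 1256 and 1234 with rmCIRP against 1725, 1732 and 1857 with PBS, a log2 fold change of -0.44 (adjusted p = 0.0328, SE 0.16), which became -0.38 (adjusted p = 0.12) without WT rmCIRP library 3. Smad7, the other inhibitory SMAD, overlapped between the conditions (5214 to 5458 and 5304 to 5837) and did not pass at 0.05 (adjusted p = 0.448).

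Skil showed the clearest rise with rmCIRP of the 10 genes. It had 6178, 6030.0 and 6138 normalized counts with rmCIRP against 4669.7, 4946 and 4838 with PBS, a log2 fold change of 0.34 (adjusted p = 2.36e-06, SE 0.04) in edgeR's test, or 1.26 times. Smurf2 rose less, from 4954, 4852 and 4814 to 5269.6, 5496 and 5303, a log2 fold change of 0.13 (adjusted p = 0.0159, SE 0.04). The ID genes did not move as one: Id1 fell from 2939, 3056 and 3231 to 2699.5, 2546 and 2528, a log2 fold change of -0.25 (adjusted p = 0.00951, SE 0.07). Id2 was higher in every rmCIRP library (4559, 4343 and 4518 against 4245, 4233 and 4081) at 0.09 (adjusted p = 0.178), and Id3 overlapped at -0.15 (adjusted p = 0.343), neither of them past the threshold. Both passed in edgeR's test with only the libraries compared, at 0.11 (adjusted p = 0.017) and -0.13 (adjusted p = 0.0264). With no filter on low counts Id3 passed too, at -0.14 (adjusted p = 0.0164). The libraries did not overlap for 6 of the 10 genes, against 50.8% of all genes. In the same comparison all 12 cycling markers were lower, 8 of 12 fibroblast markers were lower and 2 higher, 6 of 8 smooth muscle and pericyte markers were lower, and of 16 macrophage markers 10 were lower and 6 higher. Summed, the cycling markers had 11035 to 11307 normalized counts with rmCIRP and 11930.0 to 15884 with PBS, and the smooth muscle and pericyte markers 90978 to 99499 and 133080 to 146590. Their part in the values of the 10 genes was not tested.

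In cells labelled TLR4-/-, none of the 10 genes passed with rmCIRP, and neither did any of the 16258 genes tested (0%), although 1136 of them had an unadjusted p under 0.05 in edgeR's test and DESeq2 called 32. Of the 10 genes, Smad7 was the 1 with an unadjusted p under 0.05. It had 4231, 4256 and 4173 normalized counts with rmCIRP and 4532, 4741 and 4596 with PBS, all 3 lower, at -0.13 (adjusted p = 0.548). Skil, whose p was the smallest of the 10 in WT cells, had 4893, 5048 and 5150.2 against 5031, 5626 and 5061, with a 95% confidence interval of -0.14 to 0.04 for its log2 fold change of -0.05. Smad3 had 3068, 2924 and 3261 against 3525, 3225 and 3008 (interval -0.33 to 0.19) and Id1 2878, 2799.8 and 2905 against 2940.0, 3080.5 and 3097 (interval -0.23 to 0.07). Smad6 was lower in all 3 rmCIRP libraries, 1305, 1282 and 1266 against 1373, 1422 and 1428, at -0.13 (adjusted p = 0.95) with an interval of -0.46 to 0.20. The libraries did not overlap for 3 of the 10 genes, Smad6, Smad7 and Id1, and for 13.7% of all genes.

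The genotype difference in the response to rmCIRP was tested in the same model and passed for 5 of the 10 genes, all with a negative difference (TLR4-/- minus WT), beside 31.4% of all genes and 14.3% with a negative one. It was firmest for Skil, at -0.39 (adjusted p = 6.77e-05, SE 0.06), and largest for Smad3, at -0.48 (adjusted p = 0.0479, SE 0.17). Smad7, Id2 and Smurf2 passed narrowly, at -0.17 (adjusted p = 0.0624), -0.17 (adjusted p = 0.0989) and -0.15 (adjusted p = 0.0733). Skil alone of the 5 kept its call when any 1 library was left out. Smad3 missed it without WT PBS library 3 (-0.42, adjusted p = 0.117) or the first PBS library labelled TLR4-/- (-0.43, adjusted p = 0.109), and Smad7, Smurf2 and Id2 missed it without any 1 of 4, 5 and 8 libraries, with adjusted p up to 0.198, 0.244 and 0.198. The genes that fell with rmCIRP in WT cells, Smad6 and Id1, had differences of 0.31 (adjusted p = 0.343) and 0.17 (adjusted p = 0.252) and did not pass. Of 18 alternative fits, Smad6 did pass in 2 and Id1 in 1, so a genotype difference in these falls is not excluded.

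**Figure D3:**
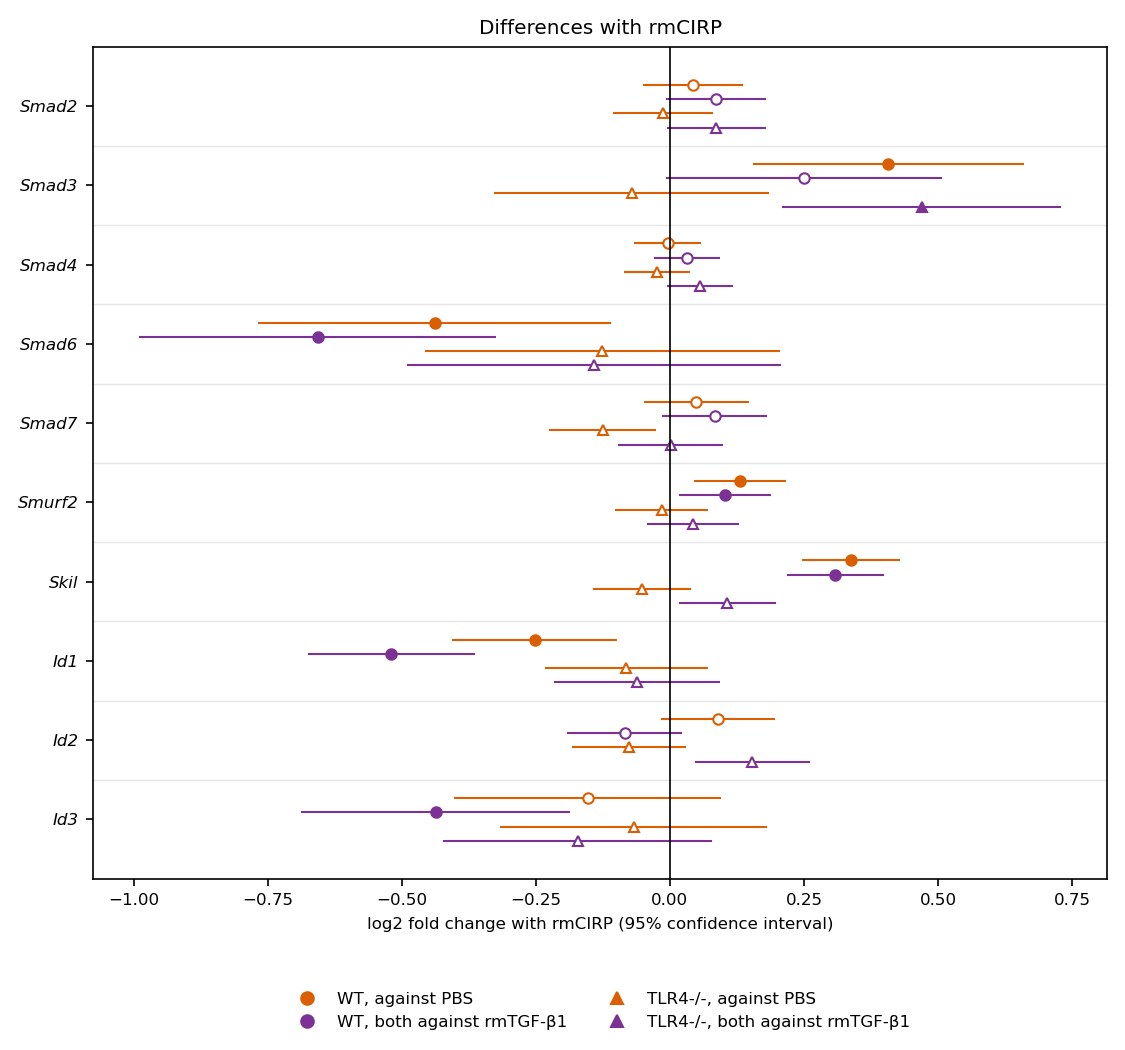
Log2 fold change with rmCIRP (horizontal axis, bars are 95% confidence intervals) for each gene (vertical axis), against PBS in orange and on top of rmTGF-β1 in purple, in WT cells (circles) and cells labelled TLR4-/- (triangles); filled symbols passed an adjusted p under 0.1 and open ones did not. Skil is at 0.34 and 0.31 in WT cells and at -0.05 and 0.11 in cells labelled TLR4-/-, and Id1 and Id3 are lowest in WT cells given both agents, at -0.52 and -0.44.

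With rmCIRP added to rmTGF-β1, WT cells had less Id1, Id3 and Smad6 mRNA and more Skil and Smurf2 mRNA than with rmTGF-β1 alone. In edgeR's test with Benjamini-Hochberg adjustment 5 of 10 genes passed, near the 42.2% of all genes, with a median log2 fold change of 0.06 over the 10. Id1 had 1930.1, 1975 and 2014 normalized counts with both agents and 2872, 2844 and 2743 with rmTGF-β1, a log2 fold change of -0.52 (adjusted p = 1.06e-05, SE 0.07), and Id3 had 8297, 8352 and 8419 and 11221, 11396 and 11209, at -0.44 (adjusted p = 0.00685, SE 0.12). Id2 was also lower in all 3 libraries (3199.6, 3475 and 3493 against 3561, 3526 and 3655) but did not pass at -0.08 (adjusted p = 0.219). Smad6 had 1071, 1169 and 1113 against 1695, 1946 and 1628, a log2 fold change of -0.66 (adjusted p = 0.00267, SE 0.16), or 0.634 times. The fall of Id1, Id3 and Smad6 was larger than the spread of their libraries, which did not overlap. Skil rose from 5517, 5514 and 5478 to 6589, 6989 and 6936, by 0.31 (adjusted p = 8.77e-06, SE 0.04), and Smurf2 by 0.10 (adjusted p = 0.0569, SE 0.04), a call lost without any 1 of 4 of the 6 libraries (log2 fold changes 0.09 to 0.11, adjusted p from 0.108 to 0.185). Smad3 was higher in all 3 libraries (3416, 3154 and 3692 against 3077, 2539.7 and 2978) but did not pass at 0.25 (adjusted p = 0.124), and Smad7 did not at 0.08 (adjusted p = 0.181), while it passed without WT library 1 with both agents, at 0.12 (adjusted p = 0.0801). With only the libraries compared, edgeR's test also called Smad3 (0.26, adjusted p = 0.00244) and Smad2 (0.09, adjusted p = 0.0568). It then called Smad7 (0.09, adjusted p = 0.0705) and Id2 (-0.08, adjusted p = 0.093) as well. Over all genes, 3790 were called upward and 3734 downward under that setting. In this comparison 6 of 8 smooth muscle and pericyte markers were lower, summing to 94708 to 98877 normalized counts with both agents and 137970 to 147480 with rmTGF-β1, 6 of 12 fibroblast markers were lower and 1 higher, and of 16 macrophage markers 7 were lower and 6 higher. Their part in the result was not tested.

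Seen from the other side, adding rmTGF-β1 to rmCIRP in WT cells changed 6 of 10 genes in edgeR's test, against 20.5% of all genes, with medians of -0.13 over the 10 and -0.01 over all genes. All 3 ID genes fell, with log2 fold changes of -0.40 (adjusted p = 0.000722, SE 0.08) for Id1, -0.40 (adjusted p = 8.23e-06, SE 0.05) for Id2 and -0.38 (adjusted p = 0.0335, SE 0.12) for Id3, the last becoming -0.34 (adjusted p = 0.109) without WT rmCIRP library 1. Smad3 went from 5088, 4767 and 5176 to 3416, 3154 and 3692 normalized counts, a log2 fold change of -0.55 (adjusted p = 0.00296, SE 0.12), and its libraries with both agents overlapped those with PBS (3462 to 4238). The feedback genes Smad7 and Skil rose by 0.21 (adjusted p = 0.00403, SE 0.05) and 0.16 (adjusted p = 0.0163, SE 0.04). Skil thereby had its highest condition mean with both agents, 6838 ± 217 normalized counts, and so did Smad7, with 6365 ± 289. Smad6 was lower in all 3 libraries (1071, 1169 and 1113 against 1445, 1256 and 1234) but did not pass at -0.24 (adjusted p = 0.383). In edgeR's test it did pass with only the libraries compared (-0.23, adjusted p = 0.00926) and with no filter on low counts (-0.23, adjusted p = 0.00291). Whether the response to both agents differed from the sum of the single ones on the log2 scale was tested as an interaction, and none of the 10 genes passed, where 0.0492% of all genes did. At an unadjusted p under 0.05 there were Id1 and Id2, and 917 of all 16258 genes, and the estimates were -0.27 (adjusted p = 0.797) for Id1, -0.17 (adjusted p = 0.809) for Id2, -0.28 (adjusted p = 0.939) for Id3 and -0.03 (adjusted p = 0.997) for Skil. Id1 and Id3 did pass in edgeR's test with no filter on low counts and with only the libraries compared. Their lowest adjusted p was 0.0225 for Id1 and 0.00292 for Id3.

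In cells labelled TLR4-/-, rmCIRP on top of rmTGF-β1 changed 1 of the 10 genes in edgeR's test, where 2.69% of all genes passed. Smad3 rose from 1861, 2191 and 2551 to 2441, 2908 and 3839 normalized counts, a log2 fold change of 0.47 (adjusted p = 0.0846, SE 0.13), with libraries that overlapped. Without the third library with both agents, whose Smad3 level of 3839 was the highest of the 6, it was 0.28 (adjusted p = 0.477), and it also missed the threshold without the first (0.37, adjusted p = 0.411) or the second (0.47, adjusted p = 0.213) rmTGF-β1 library. With only the libraries compared it missed the threshold too, at 0.47 (adjusted p = 0.679). Without the 2 libraries that stood apart it passed, at 0.40 (adjusted p = 0.0489). Id3 had 9224, 7906 and 5410.1 normalized counts against 8910.0, 9585 and 6817, and Smad6 1099, 857 and 522 against 978, 1090.4 and 669. Both genes overlapped between the conditions, and the third library was the lowest of its condition each time. Neither gene passed, with Id3 at -0.17 (adjusted p = 0.484). In edgeR's test Id3 did pass with no filter on low counts (-0.17, adjusted p = 0.011) and without the first library with both agents (-0.34, adjusted p = 0.058). Without the third it was 0.02 (adjusted p = 0.98). Skil and Id2 did not pass, at 0.11 (adjusted p = 0.202) and 0.15 (adjusted p = 0.134). Skil did pass without the third rmTGF-β1 library (0.16, adjusted p = 0.0339) or the first with both agents (0.13, adjusted p = 0.0844), and Id2 without the second of either condition (0.24, adjusted p = 0.0382, and 0.18, adjusted p = 0.0936). Id2 also passed in edgeR's test with no filter on low counts (0.16, adjusted p = 0.0441) and in DESeq2 (0.16, adjusted p = 0.0718).

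The response to added rmCIRP under rmTGF-β1 differed between genotypes for Id1, Id2 and Skil in edgeR's test, 3 of 10 genes beside 20.9% of all genes. The difference (TLR4-/- minus WT) was 0.46 (adjusted p = 0.00392, SE 0.11) for Id1, 0.24 (adjusted p = 0.0288, SE 0.07) for Id2 and -0.20 (adjusted p = 0.0293, SE 0.06) for Skil. Id1 kept its call without any 1 library and, at 0.49 (adjusted p = 4.94e-06), without the 2 libraries that stood apart, while Id2 became 0.15 (adjusted p = 0.113) without those 2 and Skil -0.15 (adjusted p = 0.116) without the third rmTGF-β1 library. Smad6 and Id3 had differences of 0.52 (adjusted p = 0.147) and 0.27 (adjusted p = 0.339) that did not pass, and that did pass without the 2 libraries that stood apart, at 0.57 (adjusted p = 0.00105) and 0.32 (adjusted p = 0.00268).

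Adding rmTGF-β1 to rmCIRP in cells labelled TLR4-/- changed 9 of the 10 genes, all but Smad3, in edgeR's quasi-likelihood test, where 32.8% of all genes passed, and the medians were 0.04 over the 10 and -0.01 over all genes. The signal carriers Smad2 and Smad4 rose slightly, at 0.15 (adjusted p = 0.0169, SE 0.04) and 0.09 (adjusted p = 0.036, SE 0.03), and missed the threshold without the third library with both agents, at 0.10 (adjusted p = 0.115) and 0.08 (adjusted p = 0.127). Smad7 went from 4231, 4256 and 4173 to 5184, 5314 and 5003 normalized counts (0.29, adjusted p = 0.000187, SE 0.05), Skil from 4893, 5048 and 5150.2 to 6099, 6264 and 6510.3 (0.32, adjusted p = 3e-05, SE 0.04) and Smurf2 from 5156, 5361 and 5277 to 5708, 6284 and 6069 (0.19, adjusted p = 0.00206, SE 0.04). These 3 feedback genes were higher in each library with both agents than in any with rmCIRP alone. Smad6 and the ID genes fell, with log2 fold changes of -0.64 (adjusted p = 0.00676, SE 0.16) for Smad6, -0.33 (adjusted p = 0.00251, SE 0.07) for Id1, -0.17 (adjusted p = 0.0155, SE 0.05) for Id2 and -0.56 (adjusted p = 0.0018, SE 0.12) for Id3. Without the third library the falls of Smad6, Id1 and Id3 were smaller, at -0.40 (adjusted p = 0.0289), -0.22 (adjusted p = 0.0132) and -0.37 (adjusted p = 0.00404), and still passed, whereas Smad6 did not pass with only the libraries compared, at -0.64 (adjusted p = 0.106). In this comparison 6 of 10 endothelial markers were higher, and of 8 smooth muscle and pericyte markers 6 were lower and 2 higher. In the third library with both agents the endothelial markers summed to 1723 normalized counts against 965 and 1145 in its replicates, and the smooth muscle and pericyte markers to 51664 against 75336 and 83220.0, and their part in the result was not tested. The interaction passed for none of the 10 genes beside 1.91% of all genes, and Smad3, Skil and Id2 had an unadjusted p under 0.05, as did 2640 of all 16258 genes, with 0.54 (adjusted p = 0.146) for Smad3, 0.23 (adjusted p = 0.133) for Id2, 0.16 (adjusted p = 0.213) for Skil and 0.13 (adjusted p = 0.358) for Smad7. Without the 2 libraries that stood apart it passed for Smad3 (0.47, adjusted p = 0.0579), Skil (0.19, adjusted p = 0.0813) and Smad7 (0.20, adjusted p = 0.0878).

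Between the genotypes with PBS, cells labelled TLR4-/- had less Smad4, Smad6 and Smad7 mRNA and more Smurf2 and Skil mRNA, while the 3 ID genes did not pass. That is 5 of 10 genes in edgeR's test, near the 47.1% of all genes. Smad7 had 4532, 4741 and 4596 normalized counts in cells labelled TLR4-/- and 5214, 5458 and 5219.7 in WT, a log2 fold change of -0.20 (adjusted p = 0.00178, SE 0.05), and Smad4 had 2744, 2825 and 2656 and 2956, 3057 and 2948, at -0.13 (adjusted p = 0.00157, SE 0.03). The Smad4 call was lost in edgeR's test with no filter on low counts, at -0.12 (adjusted p = 0.112). Smad6 had 1373, 1422 and 1428 and 1725, 1732 and 1857, at -0.33 (adjusted p = 0.0966, SE 0.16), a call that was lost without any 1 of the 6 libraries (log2 fold changes from -0.35 to -0.31, adjusted p from 0.148 to 0.204). The Smad6 call was also lost in DESeq2 (-0.33, adjusted p = 0.149) and in edgeR's test with a filter at a mean count of 10 (-0.32, adjusted p = 0.116). Skil and Smurf2 were higher by 0.12 (adjusted p = 0.0373, SE 0.04) and 0.13 (adjusted p = 0.0157, SE 0.04), and without the second PBS library labelled TLR4-/- they were 0.06 (adjusted p = 0.334) and 0.08 (adjusted p = 0.166). Id2 and Id3 had log2 fold changes of 0.04 (adjusted p = 0.61) and -0.05 (adjusted p = 0.755). All 16 macrophage markers were higher in the PBS libraries labelled TLR4-/-, by a median log2 fold change of 2.22, 8 of 12 cycling markers were higher, 7 of 10 endothelial markers were lower and 2 higher, with a median of -1.45, and 5 of 8 smooth muscle and pericyte markers were lower and 1 higher. Of 4 epithelial markers tested, 3 were higher, with a median of 1.76. The part of all these markers in these differences was not tested.

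Within conditions, Smad6, Id1 and Id3 deviated together from library to library. Pearson's r of their log2 deviations from the condition mean over the 24 libraries was 0.957 for Smad6 with Id3, 0.955 for Smad6 with Id1 and 0.955 for Id1 with Id3, while Id2 gave 0.33 with Smad6. Leaving out the 6 libraries labelled TLR4-/- with rmTGF-β1, alone or with rmCIRP, the values over the other 18 were 0.46, 0.654, 0.663 and 0.109. Smad3 ran opposite to Smad6, with r = -0.797 over 24 and -0.515 over 18 libraries, and Smad4 went with Skil (r = 0.773 and 0.776). The points share libraries and size factors, so these are descriptions only. Over the 24 libraries as they stand, the genes most like Smad3 among 12311 genes were Spry2 (r = 0.98), Arhgap6 (0.957) and Sestd1 (0.948), those most like Skil were Mfhas1 (0.96), Mtpn (0.955) and Rrp12 (0.951), those most like Smad7 were Adarb1 (0.95), Pcsk5 (0.949) and Hip1r (0.946), and those most like Id1 were Nab2 (0.957), Dglucy (0.95) and Auh (0.949).

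**Figure D4:**
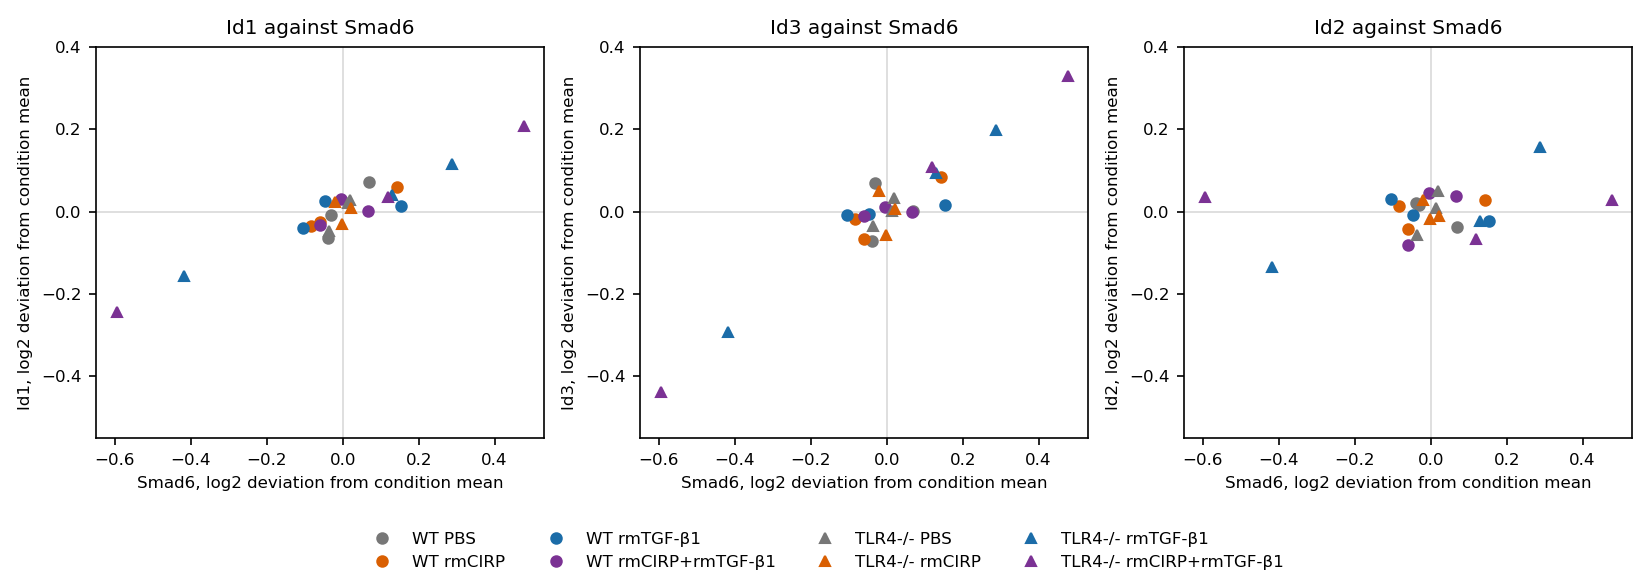
Log2 deviation of each library from the mean of its condition, for Smad6 (horizontal axes) and for Id1, Id3 and Id2 (vertical axes). Each point is 1 of 24 libraries, circles are WT and triangles libraries labelled TLR4-/-. The libraries labelled TLR4-/- with rmTGF-β1, alone (blue triangles) or with rmCIRP (purple triangles), span the diagonal for Id1 and Id3, and the other 18 libraries lie near 0.

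Of the other genes of the pathway, those upstream of the SMADs changed in both directions. The counts in each list stand beside shares called over all genes of 12.4% with rmTGF-β1 and 43.9% with rmCIRP in WT cells, 23.9% with rmTGF-β1 in cells labelled TLR4-/- and 47.1% between genotypes with PBS. Among 12 TGF-β and BMP receptors, 4 rose and 3 fell with rmTGF-β1 in each genotype. The BMP type I receptor Acvr1 rose by 0.30 (adjusted p = 0.000189) in WT cells and 0.70 (adjusted p = 2.86e-09) in cells labelled TLR4-/-, the TGF-β type I receptor Tgfbr1 by 0.30 (adjusted p = 0.0481) and 0.55 (adjusted p = 0.000225), and the co-receptor Tgfbr3 fell by 0.64 (adjusted p = 0.00121) and 1.08 (adjusted p = 3.42e-06) on the log2 scale in edgeR's test. The difference between genotypes passed for Acvr1 alone of the 12, at 0.40 (adjusted p = 0.0443). With rmCIRP in WT cells 4 receptors rose and 1 fell, and Tgfbr3 then rose by 0.56 (adjusted p = 0.000444). Among 15 BMP ligands and antagonists, Bmp4 fell with rmTGF-β1, by 0.90 (adjusted p = 3.96e-06) in WT cells and 1.09 (adjusted p = 1.48e-06) in cells labelled TLR4-/- on the log2 scale, and the activin antagonist Fstl3 rose by 0.71 (adjusted p = 7.54e-06) and 0.64 (adjusted p = 8.88e-06). In all, 4 of the 15 rose and 2 fell in WT cells, and 5 rose and 4 fell in cells labelled TLR4-/-. With PBS, 11 of the 15 were lower in cells labelled TLR4-/- than in WT and none was higher, where 3900 of 16258 genes were lower, with a median log2 fold change of -0.74, Gdf10 lowest at -4.22 (adjusted p = 1.24e-13). With rmCIRP in WT cells 5 rose and 4 fell, Bmp6 by 1.02 (adjusted p = 6.99e-06) upward and Bmper, a BMP-binding protein, downward at -0.35 (adjusted p = 0.000192).

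Among 19 other genes of the SMAD pathway, 3 rose and 2 fell with rmTGF-β1 in WT cells, and 5 rose and 4 fell in cells labelled TLR4-/-, with medians of -0.02 and 0.02. Pmepa1, a feedback inhibitor that sequesters receptor-regulated SMADs, rose in each genotype, by 0.47 (adjusted p = 1.06e-06) and 0.55 (adjusted p = 4.16e-08) in edgeR's test, and Id4, the remaining ID gene, fell, with log2 fold changes of -0.36 (adjusted p = 0.0689) and -0.86 (adjusted p = 8.07e-05). With rmCIRP in WT cells 8 rose and 6 fell, led upward by the corepressor gene Tgif1 at 0.43 (adjusted p = 0.000731) and downward by the BMP-type Smad9 at -0.58 (adjusted p = 0.03), and in cells labelled TLR4-/- none passed. Of 19 TGF-β1 target genes, 10 rose and none fell with rmTGF-β1 in WT cells (median 0.21), and 11 rose and 3 fell in cells labelled TLR4-/- (median 0.23), with Il11 at 0.71 (adjusted p = 0.0675) and 1.47 (adjusted p = 0.000172) and Tgfb1 itself at 0.51 (adjusted p = 0.0002) and 0.60 (adjusted p = 1.15e-05). With rmCIRP in WT cells 5 of these 19 rose and 7 fell (median -0.09), with Junb at 0.65 (adjusted p = 4.88e-07) and Col1a1 at -0.37 (adjusted p = 0.00082). Of 13 basic helix-loop-helix genes tested whose products pair with or stand beside the ID proteins, 2 rose and 1 fell with rmTGF-β1 in WT cells and 3 rose and 4 fell in cells labelled TLR4-/-. Bhlhe40 rose in each, by 0.53 (adjusted p = 0.00292) and 0.88 (adjusted p = 2.37e-06). With rmCIRP in WT cells 3 of the 13 rose and 6 fell, Twist2 by 0.83 (adjusted p = 2.36e-07) upward and Hes1 downward at -0.51 (adjusted p = 3.35e-05), and none passed in cells labelled TLR4-/-.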

How the data were processed

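The deposited files hold raw counts: per the labels and methods, the authors checked reads with FastQC, used STAR2 with a mouse GENCODE reference for alignment, and counted reads per gene with ht-seq. The submitters' processing notes name FastQC, HTSeq and the build NCBIM37. The kit was stranded, and the strand option of the counting is not given in the sources used here. The 5 tally lines of each file that name no gene were left out.

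Counts of 24 libraries in 8 conditions were fitted together with 1 mean per condition in edgeR 4.0.16 (R 4.3.3), after filterByExpr and TMM scaling, and 14 comparisons were tested with the quasi-likelihood test. Benjamini-Hochberg adjustment ran over all 16258 genes, with a threshold of 0.1, and the procedure was tested on simulated data. The simulated counts had the same spread for every gene and no library that stood apart, so that test does not cover such libraries. Normalized counts are counts divided by DESeq2 1.42.0 size factors. Exon lengths came from GENCODE M21 and promoters from RefSeq (GRCm38.p6), and no other coordinates are given because the builds differ. By those exons, Smurf2 shared 58 bases (0.941%) with a microRNA gene, Gm27322, that had no counts.

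The 10 genes and the lists were chosen with earlier results of these data known. All 10 are named. From each other list, the named genes are those of at most 3 with the largest rise and 3 with the largest fall among called genes whose mean was 50 normalized counts or more. Genes alike are the 3 with the highest correlation over 24 libraries. Alternatives tried were RLE scaling, DESeq2, no filter, a mean count of 10, a replicate block, only the libraries compared, each library left out and, chosen after seeing the data, the 2 libraries that stood apart left out.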

Additional observations from a re-analysis of the deposited data

Results flagged for a closer look

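The responses of 6 genes to rmCIRP differed between WT cells and cells labelled TLR4-/- by the test of the difference itself in edgeR, 2 of them in both settings, where 31.4% of all genes differed against PBS and 20.9% on top of rmTGF-β1. Against PBS, the difference (TLR4-/- minus WT) in log2 fold change was -0.48 for Smad3, -0.17 for Smad7, -0.15 for Smurf2, -0.39 for Skil and -0.17 for Id2. On top of rmTGF-β1 it was -0.20 for Skil, 0.46 for Id1 and 0.24 for Id2. Id2 thus stood out with a negative difference in one setting and a positive one in the other. Skil stood out with a negative difference in each. The settings use different libraries, and no test compared them with each other. Against PBS, Smad3, Smad7, Smurf2 and Id2 missed the threshold when certain single libraries were left out, and on top of rmTGF-β1 Id2 missed it without the 2 libraries that stood apart and Skil without the third rmTGF-β1 library labelled TLR4-/-.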

How the results depend on the processing

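All 51 called fold changes of the 10 genes kept their direction under every alternative, and 29 of them stayed past the threshold in all. Of 89 that were not called, 29 passed under at least 1 alternative. Signs turned for Skil with rmCIRP in cells labelled TLR4-/-, to 0.00033 without the second PBS library (range -0.083 to 0.00033 over each library left out), and for Id3 with rmCIRP on top of rmTGF-β1 in those cells, to 0.018 without the third library with both agents (range -0.34 to 0.018). Signs also turned under at least 1 alternative for 20 of 39 other differences that no setting called, such as Smad3 with rmTGF-β1 added to rmCIRP in those cells (-0.02, range -0.21 to 0.13).

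The number of the 10 genes called moved as follows. For both agents against rmTGF-β1 in WT cells (5), it was 8 with a mean count filter of 10 and 9 with only the libraries compared. For the same in cells labelled TLR4-/- (1), it was 2 with DESeq2, 3 with no filter, 0 with only the libraries compared and 0 to 4 with 1 library left out. The genotype difference in the rmTGF-β1 response (0) gave 3 with no filter, 1 without the 2 libraries that stood apart and 0 to 1 with 1 library left out. The genotype difference in the rmCIRP response gave 1 to 5 with 1 library left out (5), and under rmTGF-β1 (3) it gave 6 with no filter and 2 to 5 with 1 left out. The interaction gave 2 with no filter and 2 with only the libraries compared in WT cells (0), and in cells labelled TLR4-/- (0) it gave 2 with DESeq2, 2 with no filter, 3 without the 2 libraries that stood apart and 0 to 3 with 1 left out. With 1 library left out, rmTGF-β1 against PBS called 2 to 4 in WT cells and 5 to 8 in cells labelled TLR4-/-, and genotype under PBS called 2 to 4. The cause of these moves was not tested.

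Same-numbered libraries did not all deviate together (correlations from -0.117 to 0.369, mean 0.012, over 84 pairs), though both libraries that stood apart carry number 3, and 12 of 24 libraries correlated best with their own number. With the replicate block, 6 genes were called for both agents against rmTGF-β1 in WT cells, Smad2 joining at 0.09 (adjusted p = 0.0977, edgeR), and 4 for the genotype difference in the rmCIRP response, Id2 missing at -0.17 (adjusted p = 0.111). It changed no other call of the 10 genes.

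Over all genes, calls for rmCIRP in cells labelled TLR4-/- went from 0 to 32 with DESeq2, 149 with no filter, 29 with only the libraries compared, 1 with the block and up to 9 with 1 library left out. Calls for both agents against rmTGF-β1 there went from 437 to 924, 1580, 0, 810 and 0 to 2674 in the same order, and the interaction there from 310 to 606, 1357, 4, 475 and 9 to 1621, with 899 without the 2 libraries that stood apart. Both agents against rmCIRP there gave 2710 in place of 5329 with only the libraries compared. The genotype difference in the rmTGF-β1 response went from 14 to 173 with DESeq2, 563 with no filter, 23 with the mean count filter, 22 with the block, 190 without the 2 libraries that stood apart and 0 to 119 with 1 left out, and the WT interaction from 8 to 39, 198 with no filter, 125 with only the libraries compared and 2 to 7. For rmTGF-β1 against PBS, 1 library left out gave 1029 to 1690 in place of 2019 in WT cells and 2517 to 3783 in place of 3884 in cells labelled TLR4-/-. With 3 libraries per condition and a common biological coefficient of variation of 0.0571, small changes of these genes can be missed.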
